A study of Rattus norvegicus with 70 samples.

Results

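Promoter regions that gave almost no signal in untreated rat liver were described here: 904 of the 16329 autosomal regions around transcript starts (5.54%), out of 17174 regions in all. They were chosen by the deposited values themselves, as the regions whose mean deposited signal over 5 livers of the water control at partial hepatectomy was under 5, against a median of 52.9 over all autosomal regions in those livers. That threshold is a description of the chosen livers and no finding. Just inside it lay Rwdd1 at 4.995, Mir876 at 4.996 and Pdia4 at 4.9997, and just outside it lay Olr528 at 5.01, Vom1r75 at 5.01 and Olr376 at 5.02. The 904 regions carried 895 gene symbols and covered 873 places that do not overlap, so 56 of them shared a place with another.

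The study followed rat liver through a scheme of tumour initiation and promotion. Crj:CD(SD)IGS rats first received an initiating treatment. It was diethylnitrosamine (DEN), which alkylates DNA, at a dose of 3 or of 30 mg/kg, or one of 3 liver toxicants, namely thioacetamide (45 mg/kg), methapyrilene (100 mg/kg) and acetaminophen (1000 mg/kg); controls received 0.5% methylcellulose, the vehicle. After 2 weeks without treatment, every group but one drank phenobarbital, a promoter of liver tumours, at 500 ppm; the water control had the vehicle and then plain water, and the promoted control had the vehicle and then phenobarbital. All animals underwent partial hepatectomy 1 week into promotion, the water control included, and the libraries come from liver at that operation or at terminal euthanasia after 6 weeks. There were 5 libraries for each of 7 conditions at each time, 70 in all, and whole liver, with all its cell types, was used. Per the labels, the initiating treatment lasted 1 or 2 weeks, and 1 week for DEN at 30 mg/kg, which cost the animals weight.

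DNA methylation in mammals sits mostly on the cytosine of the dinucleotide CG. The assay pulled down fragments that bind a methyl-CpG-binding protein (MBD sequencing), so a region yields many reads when it holds many methylated CGs and few reads when its CGs are few or unmethylated. These 2 cases cannot be told apart from the signal alone. CpG islands, the CG-dense promoters of broadly used genes, are mostly unmethylated in normal tissue, whereas promoters of many tissue-restricted gene families hold few CGs.

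Near-empty regions included some with CG-poor and some with CG-rich sequence at the transcript start. A count of CGs there covers 300 of the 5625 bases of a region and does not measure methylation. Sequences were matched to regions by gene, through the transcript, symbol or synonym, and regions of the same gene got the same sequence. The genome build of the regions is not given, so a matched sequence need not be that of the measured region. The promoters of 6 genes are shown to make this visible, each as the 250 bases before the start from RefSeq (GRCr8), 5′ to 3′, with every CG in capitals. The first is Olr1614, an odorant receptor gene (chr15:26048482-26048731, plus strand), followed by Vom1r94, a pheromone receptor gene (chr4:123832382-123832631, minus strand), Klri1, a killer cell lectin-like receptor gene (chr4:164904869-164905118, minus strand), and Cyp2b21, a cytochrome P450 gene (chr1:91042753-91043002, minus strand). The CG-rich ones are the last 2: Ctcf, which encodes a DNA-binding architect of chromatin loops (chr19:50431595-50431844, plus strand), and Pax2, a developmental transcription factor of kidney and eye (chr1:253565672-253565921, plus strand). The first 4 hold 2, 1, 2 and 1 CGs in the stretch shown, and the last pair 30 and 25.
Olr1614: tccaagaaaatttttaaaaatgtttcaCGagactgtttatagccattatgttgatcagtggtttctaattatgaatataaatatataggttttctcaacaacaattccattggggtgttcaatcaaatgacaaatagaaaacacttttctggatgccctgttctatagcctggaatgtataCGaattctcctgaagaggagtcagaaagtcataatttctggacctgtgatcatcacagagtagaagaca
Vom1r94: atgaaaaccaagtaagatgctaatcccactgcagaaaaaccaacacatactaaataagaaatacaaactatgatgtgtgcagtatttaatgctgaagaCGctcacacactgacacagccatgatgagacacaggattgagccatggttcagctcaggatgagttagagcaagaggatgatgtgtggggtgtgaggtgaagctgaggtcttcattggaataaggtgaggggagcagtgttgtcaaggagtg
Klri1: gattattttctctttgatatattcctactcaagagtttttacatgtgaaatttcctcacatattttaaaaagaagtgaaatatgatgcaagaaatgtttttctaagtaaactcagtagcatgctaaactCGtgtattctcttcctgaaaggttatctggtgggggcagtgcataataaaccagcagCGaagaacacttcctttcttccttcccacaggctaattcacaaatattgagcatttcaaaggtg
Cyp2b21: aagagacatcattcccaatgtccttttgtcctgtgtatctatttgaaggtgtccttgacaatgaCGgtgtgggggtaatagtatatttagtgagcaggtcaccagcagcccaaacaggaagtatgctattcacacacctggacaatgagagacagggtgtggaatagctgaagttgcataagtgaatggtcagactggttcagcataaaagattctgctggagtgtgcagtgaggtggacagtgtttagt
Ctcf: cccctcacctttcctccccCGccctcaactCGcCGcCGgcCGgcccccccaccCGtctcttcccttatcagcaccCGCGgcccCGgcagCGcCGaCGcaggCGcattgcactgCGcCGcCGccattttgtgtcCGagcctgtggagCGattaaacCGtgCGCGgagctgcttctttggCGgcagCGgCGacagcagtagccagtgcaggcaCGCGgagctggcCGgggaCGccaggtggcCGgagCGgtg
Pax2: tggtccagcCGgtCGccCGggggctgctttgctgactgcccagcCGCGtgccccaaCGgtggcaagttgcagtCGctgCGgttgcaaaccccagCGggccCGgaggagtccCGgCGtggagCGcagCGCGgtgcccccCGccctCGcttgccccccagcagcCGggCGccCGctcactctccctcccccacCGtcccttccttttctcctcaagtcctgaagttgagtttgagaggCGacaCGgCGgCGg

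Counted over 300 bases, 250 before the start to 50 after it, the near-empty regions had a median of 1 CG (quartiles 0 and 4), and the other autosomal regions had a median of 17 (quartiles 6 and 26). The search was for the letters CG, which read the same on both strands, and 94.5% of all RefSeq promoters of that length held at least 1. No CG at all was found in 193 of the 732 near-empty regions with a sequence (26.4%), against 343 of 12214 other regions (2.81%). The median GC content was 39% against 58.3%. At the other end, 131 near-empty regions (17.9%) had 15 or more CGs, as did 56.02% of the other regions. A sequence was found for 81.7% and 80.9% of the 2 sets. MicroRNA genes were left out of this count because the promoter table lists none, a choice made after 8 of them were found among the near-empty regions; with them, under 80% of the other regions had a sequence.

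**Figure D1:**
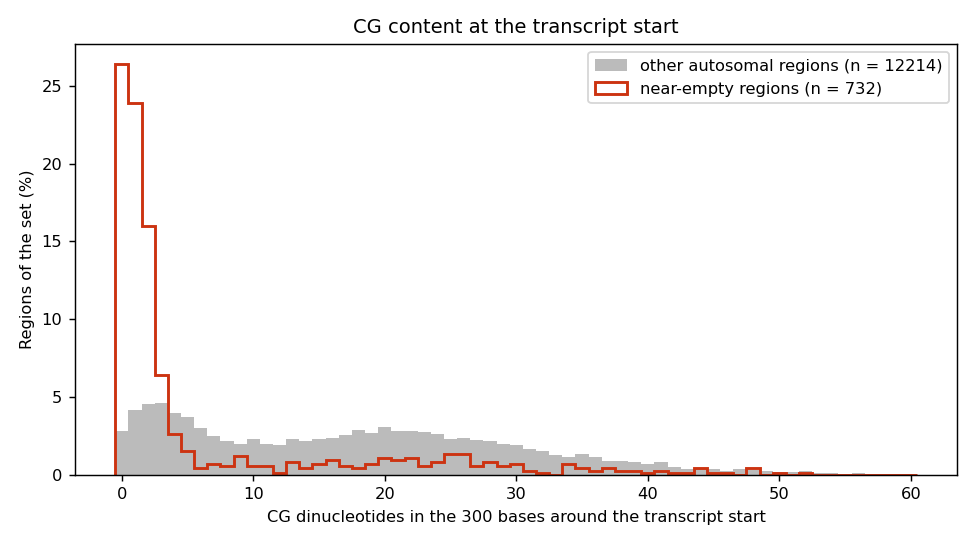
Number of CG dinucleotides in the 300 bases around the transcript start (x axis) against the percent of regions of each set (y axis), for 732 near-empty and 12214 other autosomal regions. The near-empty regions pile up at 0 to 3 CGs, which 72.7% of them have against 16.1% of the others, and 17.9% have 15 or more.

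Receptors of the chemical senses made up more than any other group. Odorant receptors (Olr genes), which sense volatile molecules in the nose, gave 379 near-empty regions of 1194 (31.7%). Vomeronasal receptors, which sense pheromones, gave 99 of 177 (55.9%), and taste receptors 6 of 33 (18.2%). Together these were 484 of the 904 near-empty regions (53.5%), and 34.5% of all chemosensory regions were near-empty against 2.81% of the other regions. Among the chemosensory genes themselves the median was 1 CG both in the near-empty and in the other regions. No CG at all was found in 40.05% of the near-empty and 26.97% of the other chemosensory regions with a sequence, and 3 or fewer in 97.8% and 87.7%. None of the 402 near-empty chemosensory regions with a sequence had 15 or more CGs.

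Several other gene lists also had a share above that of all autosomal regions, zinc finger protein genes only slightly. Natural killer cell receptors (Klr and Ly49 genes), which lymphocytes carry, were near-empty in 15 of 34 regions (44.1%), and placental members of the prolactin family in 7 of 23 (30.4%). Cytochrome P450 genes, which encode drug- and steroid-metabolizing enzymes of the liver, were near-empty in 15 of 71 (21.1%), and the conjugating enzymes of drug metabolism in 6 of 53 (11.3%). Histone cluster genes gave 3 of 22 (13.6%), serpins 3 of 36 (8.33%) and zinc finger protein genes 11 of 175 (6.29%), beside 5.54% over all autosomal regions. Chemokines, interleukins and their receptors stood below that share with 5 of 119 (4.2%), as did RT1 histocompatibility genes with 2 of 46 (4.35%), oxidative phosphorylation genes with 2 of 89 (2.25%), proteasome subunits with 1 of 39 (2.56%), developmental transcription factors outside the Hox clusters with 2 of 123 (1.63%) and neuronal ion channels and receptors with 1 of 173 (0.578%).

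No region was near-empty among 48 of defensins, 18 of kallikreins, 8 of major urinary and odorant-binding proteins, 87 of cytosolic ribosomal proteins, 23 of Hox genes and 43 of keratins. The same held for 23 regions of hepatocyte identity genes, 9 of stellate cell and fibroblast markers, 14 of macrophage and lymphocyte markers, 5 of endothelial markers and 7 of biliary and progenitor markers. Methylation near a start is no measure of expression, so these lists name no cells here. By chromosome, the share of near-empty regions was highest on chromosome 3, with 123 of 1406 (8.75%), of which 105 were odorant or vomeronasal receptors, and lowest on chromosome 16, with 4 of 453 (0.883%).

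**Figure D2:**
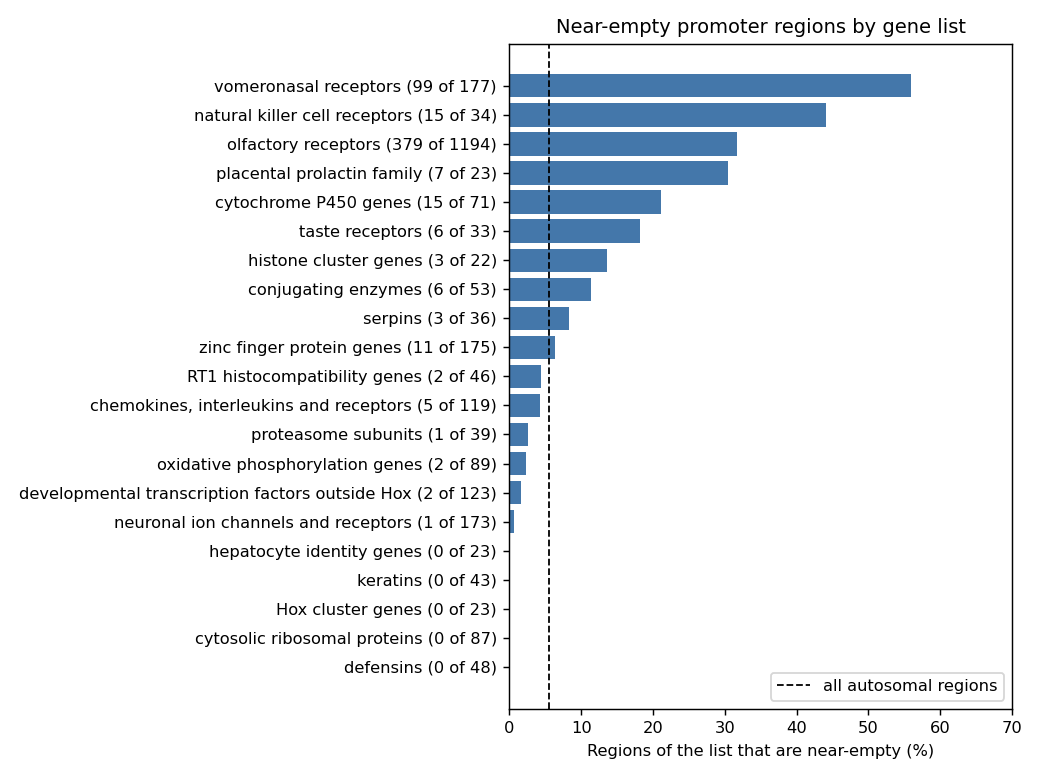
Percent of the autosomal regions of each gene list that were near-empty (bars, x axis), with the number of near-empty regions and of all regions beside each name and the share over all autosomal regions as a dashed line. Vomeronasal receptors reach 55.9% and natural killer cell receptors 44.1%, whereas 5 of the lists shown have none.

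The 420 near-empty regions outside the chemosensory receptors were more mixed in sequence. Their median was 7 CGs (quartiles 1 and 23), against 18 in the other regions outside those families, and all 131 near-empty regions with 15 or more CGs were among them. Several belong to genes used in nearly every cell, and the following were picked after their values were seen. Actg1, cytoplasmic gamma-actin, had 50 CGs in its window and a mean of 4.68 in the water control at hepatectomy. Gng5, a G protein subunit, had 48 CGs and a mean of 3.66, and Ppm1g, a protein phosphatase, had 44 CGs and a mean of 1.59. Smc6, a DNA repair component of the SMC5/6 complex, had 42 CGs and a mean of 2.82, and Ctcf had 39 CGs and a mean of 4.86. The liver's own near-empty genes of the cytochrome P450 list included Cyp2b2, a main target of phenobarbital induction, at 4.63 ± 3.59, and Cyp3a2 at 2.84 ± 5.23 (SD, n = 5).

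The level in the remaining libraries, which played no part in the choice, was also low. In the water control at terminal euthanasia, 845 of the 904 regions (93.5%) again had a group mean under 5. They were 60.3% of the 1401 autosomal regions under 5 there, so more regions fell under the threshold in that group than in the one used to choose. Across the 13 groups that did not choose them, 660 to 871 of the 904 stayed under 5, fewest with DEN at 30 mg/kg at hepatectomy (845 without the 2 libraries described next) and most with DEN at 3 mg/kg at terminal euthanasia. Since the regions were chosen for low values in 1 group, some rise in the others follows from the choice.

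There were 9 libraries that stood apart from the other 61. In these, under 1% of all regions had no read (0.611% to 0.932%), against 1.595% to 5.39% in the others. The share includes the near-empty regions themselves, but the same 9 libraries were also lowest when those were left out, at 0.141% to 0.252% against 0.424% to 2.30%. They are water control replicate 5, DEN 30 mg/kg replicates 3 and 4 and acetaminophen replicate 5 at hepatectomy, and promoted control replicate 5, DEN 30 mg/kg replicate 3, thioacetamide replicate 4, methapyrilene replicate 3 and acetaminophen replicate 3 at terminal euthanasia. They are called libraries with few empty regions below. Of the 9, 8 carry library numbers from 41 to 60, a span that holds 20 libraries, and the labels do not say what the numbers stand for. The regions took 2.01% to 2.43% of the scaling total of these 9 libraries and 2.45% to 3.68% of that of the other 61, so the ranges do not overlap. The 10 libraries numbered 61 to 70 carry the same scaling totals as 10 libraries of lower numbers, and whether that total is their own was not tested. They include acetaminophen replicate 5 at hepatectomy, 1 of the 9, and acetaminophen replicate 5 at terminal euthanasia, the one at 3.68%. Without these 10 the shares were 2.01% to 2.43% in 8 libraries and 2.45% to 3.11% in 52. The scaling totals overlapped, at 43.7 M to 52.2 M and 42.1 M to 56.6 M, as did the median reads per region, at 47 to 60 and 41 to 69.

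Water control replicate 5 was the highest of its group in 721 of the 904 regions, with a median of 8.10 over them, where the mean of the other 4 replicates had a median of 1.02. Leaving it out put 1518 autosomal regions under 5, which included 900 of the 904. So fewer regions met the rule with that library than without it.

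Gain of signal was counted per library as the number of the 904 regions at a signal of 10 or more. Because the libraries were set apart by their empty regions, with the near-empty ones counted in, a higher signal of the near-empty regions there is partly built in. In the 57 libraries outside the choosing group that had the usual share of empty regions, the lowest count was 4, the median 13 and the highest 41. In the 8 with few empty regions the lowest was 197, the median 240 and the highest 373. Each of the 8 lay above all of the 57. The near-empty regions took 0.482% to 0.795% of the region reads in those 8 libraries and 0.0685% to 0.237% in the 57.

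Group means of this count were lower without the libraries of few empty regions in each group that held one. At hepatectomy the promoted control had 11.6 ± 4.83 such regions, DEN at 3 mg/kg 16 ± 5.39, thioacetamide 20.8 ± 12.3 and methapyrilene 9.6 ± 5.68 (SD, n = 5 each), and none of these groups had a library with few empty regions. DEN at 30 mg/kg had 94.6 ± 108 (n = 5), and 16.3 ± 3.21 without its 2 such libraries (n = 3). Acetaminophen had 64.4 ± 125 (n = 5), and 8.5 ± 2.65 without 1 library (n = 4). The choosing group, the water control, had 69 ± 150 (n = 5) and 2 ± 1.41 without replicate 5 (n = 4), values that the rule itself kept low.

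At terminal euthanasia the water control had 19.6 ± 7.06 and DEN at 3 mg/kg 12 ± 2.92 (n = 5 each), again with no library of few empty regions. The other 5 groups each held 1. The promoted control went from 89.2 ± 159 (n = 5) to 18.25 ± 4.27 without it (n = 4), and DEN at 30 mg/kg from 53.8 ± 91.3 to 13.25 ± 12.5. Thioacetamide went from 70.2 ± 117 to 18.25 ± 14.6, methapyrilene from 49.2 ± 84.3 to 11.5 ± 2.89 and acetaminophen from 65.6 ± 105 to 18.75 ± 12.5. Without these libraries the 13 groups outside the rule had means of 8.5 to 20.8 regions.

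**Figure D3:**
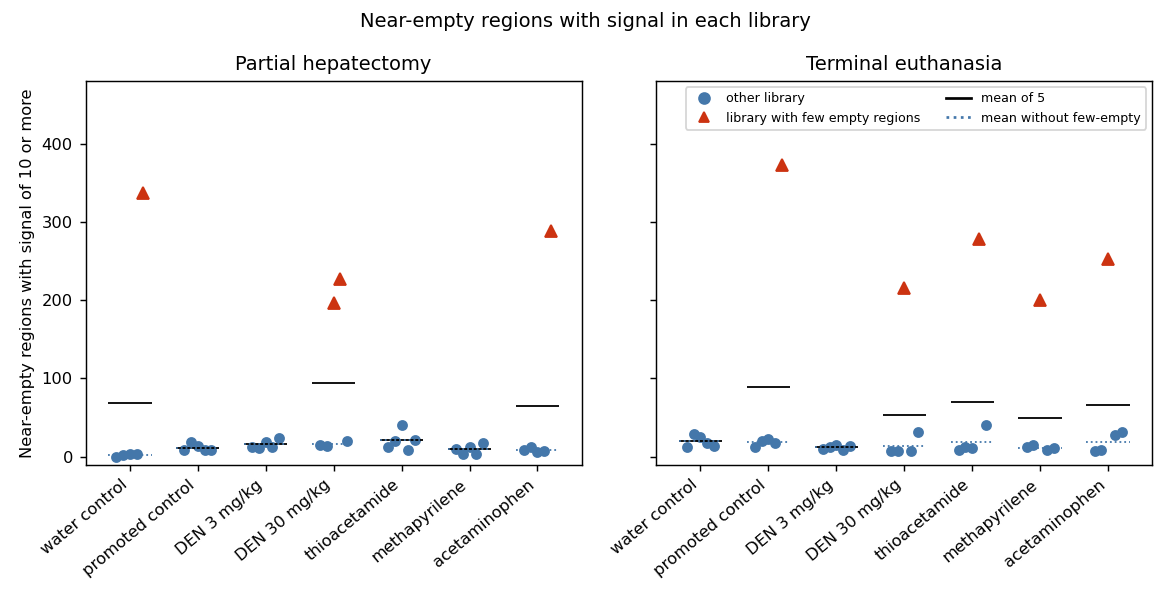
Number of the 904 near-empty regions with a signal of 10 or more (y axis) in each library, by condition and time; triangles are libraries with few empty regions, circles the others, black lines the mean of 5 and dotted lines the mean without the triangles. The triangles lie at 197 to 373 and the circles at 41 or below.

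The rise in the libraries with few empty regions ran through nearly all near-empty regions and not through the regions at large. It was not particular to the 904, since other regions of low signal rose too. With DEN at 30 mg/kg at hepatectomy, 794 autosomal regions had a group mean under 5, of which 660 were among the 904. Without its libraries of few empty regions there were 1534, of which 845 were among the 904. The mean over the 8 was above the mean over the 57 in 836 of the 904 regions (92.5%), against 46.7% of all autosomal regions. The median near-empty region stood at 7.12 in the 8 and 1.38 in the 57, while the median autosomal region stood at 55.9 and 56.3. In 619 of the 904 regions no library of the 57 reached 10. Not one had a mean of 10 or more over the 57, and 38 had a mean of 5 or more. By CG content, the median in the 8 libraries was 6.48 for regions with 3 or fewer CGs, 9.11 for 4 to 14 and 9.44 for 15 or more, and in the 57 it was 1.24, 1.72 and 2.23. The part of the lower share of reads in regions, given above for these libraries, in the rise was not tested.

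In 56 of the 904 regions (6.19%) every one of the 8 libraries lay above every one of the 57, as in 129 of the 15425 other autosomal regions (0.836%). Olr1614 was the one with the highest mean among them, with a lowest value of 16.8, a mean of 23.03 and a highest value of 30.9 in the 8, while the 57 ran from no read to 8.46. Its 5 values in DEN at 30 mg/kg at hepatectomy were 3.17, 5.26, 19.2, 24.1 and 1.03, so that replicates 3 and 4 alone were high. In the promoted control at terminal euthanasia Olr1614 had 0.991, 2.38, 4.05, no read and 30.9, again with 1 high library. Tas2r117, a bitter taste receptor, ran from 8.48 to 19.5 in the 8 and from no read to 7.58 in the 57. Grik2, a kainate-type glutamate receptor subunit, ran from 7.42 to 21.7 against no read to 5.95, and Ghrl, the precursor of the hormone ghrelin, from 9.54 to 18.3 against no read to 9.48. Cyp2b21 ran from 4.85 to 16.02 against no read to 4.40. Grik2, Ghrl and Cyp2b21 were picked after their values were seen, and 31 of the 56 were odorant receptors.

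**Figure D4:**
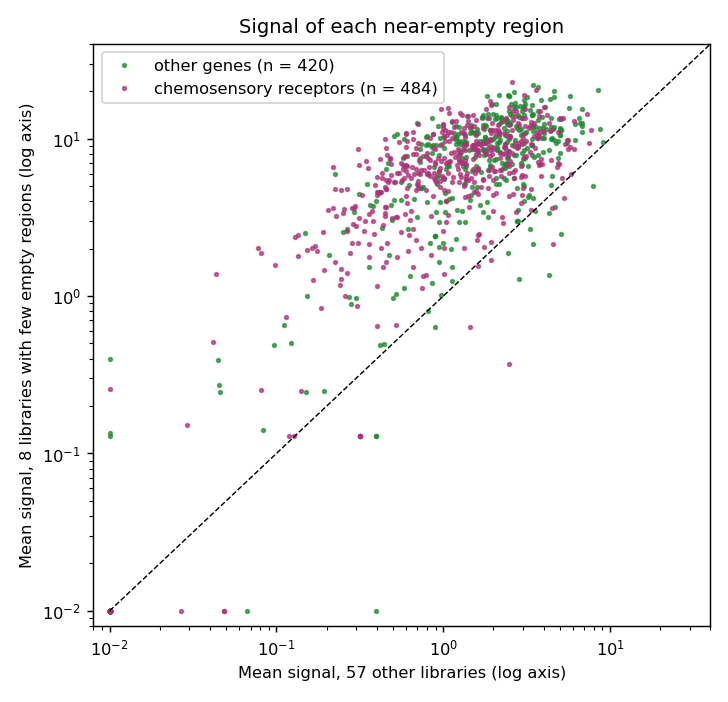
Mean signal of each of the 904 near-empty regions over 57 libraries (x axis, log scale) against the mean over the 8 libraries with few empty regions (y axis, log scale), none of them from the choosing group; the dashed line marks equal values. Of the 904 regions, 836 lie above the line, chemosensory receptors and other genes alike.

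Some members were high in single libraries of either kind. Pax2 had the highest mean of all at terminal euthanasia, 12.5 over 35 libraries and 10.4 without those of few empty regions, where the mean of the choosing group was 4.85. Its 5 values with methapyrilene at terminal euthanasia were 11.6, 12.1, 38.3, 16.3 and 9.93, and with DEN at 30 mg/kg they were 5.46, 21.7, 10.6, 2.07 and 30.7. In the water control at that time they were 3.06, 2.25, 12.02, 2.31 and 22.01, so the groups overlap widely. The 30.7 with DEN at 30 mg/kg is from library number 67, which carries the scaling total of a library of lower number. Abo, the glycosyltransferase of the blood group antigens, led at hepatectomy with 9.27, and 9.29 without the libraries of few empty regions. It reached 10 in 21 of the 57 libraries, ran from no read to 34.02 in them and from 1.05 to 25.8 in the 8. Its values with thioacetamide at hepatectomy were 19.9, 2.05, no read, no read and 25.3. High and empty libraries thus stood side by side within that group.

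Acrv1, an acrosomal protein of sperm, had a read in every one of these libraries, with 1.90 as the lowest, 8.47 as the median and 21.3 as the highest of the 57 and 4.80, 11.6 and 19.1 in the 8. Olr1471 and Olr1214, odorant receptors, had medians of 6.58 and 7.19 in the 57, and 9.64 and 9.59 in the 8. LOC689226, described in the files as similar to a ubiquitin-conjugating enzyme, ran the other way, with a median of 8.004 in the 57 and 5.38 in the 8. Mir484, a microRNA gene, had medians of 6.18 and 10.3, Eif2a, a translation initiation factor, 5.29 and 11.99, Ube2l3, a ubiquitin-conjugating enzyme, 5.45 and 15.9, and LOC360504, which the files describe as a hemoglobin alpha gene, 6.32 and 12.2. Amy1a, an amylase gene, had 6.31 and 11.6, Lrrc8c, a volume-regulated anion channel subunit, 4.39 and 12.9, and Tp53inp1, a p53-induced protein, 5.94 and 13.1. Olr1174 had 4.09 and 4.94, with 38.9 in methapyrilene replicate 5 at hepatectomy, the highest of the 57. That library, number 64, also carries the scaling total of a library of lower number.

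**Figure D5:**
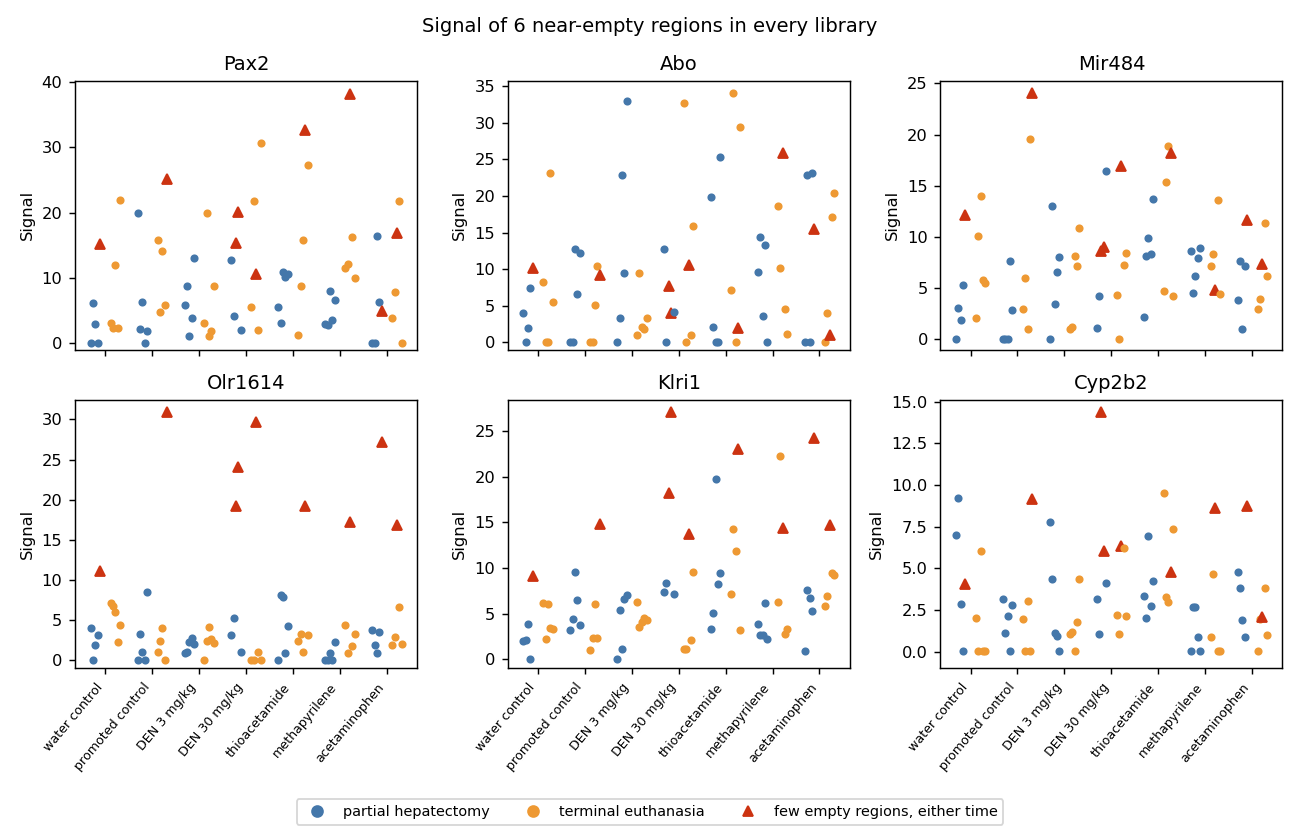
Signal (y axis) of 6 near-empty regions in each of the 70 libraries by condition, with hepatectomy in blue, terminal euthanasia in orange and libraries with few empty regions as red triangles. Pax2 and Abo scatter widely within groups, whereas in Olr1614 the triangles outside the water control run from 16.8 to 30.9 and the circles stay at 8.46 or below.

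No near-empty region was called for an initiator at hepatectomy. With limma on log2(signal + 1), 56 of the 904 regions passed the filter of at least 5 libraries at 10 or more, and 0 were called at an adjusted p under 0.05 in any of the 5 comparisons with the promoted control. The share called among all 15809 tested regions was 0% in each comparison. A region that passed the filter did so through the libraries in which it was high. The filter and the shared spread were taken over all libraries at hepatectomy, the 5 of the choosing group included. Without replicate 5 of the water control, 37 near-empty regions passed the filter and 0 were called. At an unadjusted p under 0.05 there were 1 of 56 with DEN at 3 mg/kg, 2 with DEN at 30 mg/kg, 1 with thioacetamide, 2 with methapyrilene and 3 with acetaminophen. Over all 15809 tested regions these counts were 501, 1208, 702, 580 and 582. edgeR and DESeq2 on the recovered reads also called 0 of the 56. The 5 comparisons share the promoted control, so one unusual control value enters all of them.

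The values nearest to the threshold did not pass it. Itgb1, the beta-1 integrin subunit, was at 11.5 ± 5.77 with DEN at 30 mg/kg and 2.13 ± 1.57 in the promoted control (n = 5 each), a log2 difference of 2.04 ± 0.74 (SE) with an adjusted p of 0.554 by limma, and 0.302 to 0.799 over the alternatives. Its 5 values with DEN were 6.35, 11.6, 16.3, 18.1 and 5.13, against no read, 4.45, 2.12, 2.18 and 1.88, so the groups did not overlap; without the 2 libraries of few empty regions the mean was 7.68. RT1-A1, a classical histocompatibility gene, was at 10.5 ± 6.22 and 4.197 ± 6.59 in the same comparison. Mir484 was among the 3 regions with the smallest p for a higher value with each of the 5 treatments, at 6.21 to 8.46 against 2.10 ± 3.33 in the promoted control, where 3 of 5 libraries had no read; its adjusted p by limma was 0.590 to 0.99996. Armc8, an E3 ligase component, was at 8.45 ± 5.15 with DEN at 3 mg/kg and 1.85 ± 1.62 in the control, with an adjusted p of 0.99971 by limma.

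The lower values were of the same order. Olr1174 was at 0.960 ± 1.64 with acetaminophen and 3.49 ± 7.27 with DEN at 3 mg/kg against 8.70 ± 6.33 in the promoted control, a log2 difference of -2.11 ± 0.89 and -1.74 ± 0.89 (SE). Vom1r94 was at 4.12 ± 5.28 with methapyrilene against 9.66 ± 7.67, and Eif2a at 4.64 ± 2.88 with DEN at 30 mg/kg against 7.84 ± 3.44. Vom2r18 was at 3.91 ± 2.94 with thioacetamide against 6.22 ± 1.87. The adjusted p of each was at least 0.733 by limma.

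At terminal euthanasia 119 of the 904 regions passed the filter, and 0 were called in any of 6 comparisons, phenobarbital against water included; 0% of the 16008 tested regions were called in each. At an unadjusted p under 0.05 there were 4 of 119 with phenobarbital against water, 2 with DEN at 3 mg/kg, 3 with DEN at 30 mg/kg, 2 with thioacetamide, 2 with methapyrilene and 0 with acetaminophen. Over all 16008 tested regions these counts were 507, 1363, 546, 330, 411 and 442. edgeR and DESeq2 called 0 as well.

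For phenobarbital against water, Vom1r101 had the smallest p among the near-empty regions. It was at 9.62 ± 4.45 in the promoted control, with values of 7.93, 15.5, 4.05, 8.07 and 12.6, and at 1.71 ± 1.44 in the water control, with 3.06, 3.37, 1.00, no read and 1.1. The groups did not overlap, and the log2 difference was 2.05 ± 0.73 (SE) with an adjusted p of 0.99995 by limma. Pdia4, a protein disulfide isomerase of the endoplasmic reticulum, was at 8.95 ± 7.10 against 2.12 ± 2.17, and 6.04 without the library of few empty regions. Tmem86b, an enzyme of plasmalogen breakdown, was at 4.33 ± 8.47 against 5.96 ± 1.95, but its promoted control mean was 0.547 without that 1 library.

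Among the initiators at terminal euthanasia, Vom2r60 was at 8.22 ± 6.70 with DEN at 3 mg/kg, 8.35 ± 5.28 with DEN at 30 mg/kg and 7.28 ± 3.52 with methapyrilene, against 1.98 ± 1.39 in the promoted control. RGD1304624 was at 11.2 ± 6.07 with thioacetamide, 8.13 ± 4.39 with methapyrilene and 6.74 ± 2.78 with acetaminophen, against 3.49 ± 3.85. In the other direction, Bcs1l, an assembly factor of respiratory complex III, was at 1.21 ± 0.79 with DEN at 3 mg/kg against 8.22 ± 7.66, and 5.41 in the control without its 1 library of few empty regions. Olr199 was at 1.69 ± 2.26 with DEN at 3 mg/kg and 2.39 ± 2.59 with acetaminophen against 11.4 ± 10.6, and the control values of no read, 26.2, 18.2, 5.76 and 6.87 show 2 high libraries, neither of them with few empty regions. Polk, a translesion DNA polymerase, was at 3.80 ± 4.14 with DEN at 30 mg/kg and 4.67 ± 6.88 with methapyrilene against 12.9 ± 17.9, and without the library of few empty regions in each of these groups the means were 2.37, 2.01 and 4.97. None of these passed, with adjusted p of 0.579 or more by limma.

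Without the filter all 904 regions could be compared, and the split between higher and lower regions was compared with and without the libraries of few empty regions. For DEN at 30 mg/kg at hepatectomy, 733 regions were higher and 115 lower, with a median log2 difference of 0.59 against 0.06 over all regions; without the libraries of few empty regions 411 were higher and 411 lower, with a median of 0 against 0.08. For acetaminophen at that time 662 were higher and 181 lower (median 0.33), and 413 and 417 without them (median 0). For phenobarbital against water at terminal euthanasia 658 were higher and 190 lower (median 0.36), and 430 and 398 without them (median 0). DEN at 3 mg/kg at terminal euthanasia, which is compared with a control that holds such a library, had 129 higher and 718 lower (median -0.46), and 340 and 486 without it (median -0.04). Over all 17174 regions, 56.9%, 47.8%, 51.6% and 57.1% were higher in these comparisons, in this order. Leaving those libraries out gave 62.5%, 44.3%, 56.9% and 57.9%. Other comparisons stayed uneven. Thioacetamide at hepatectomy, where neither group holds a library of few empty regions, had 514 higher and 321 lower, beside 66.1% of all regions higher. At terminal euthanasia, DEN at 30 mg/kg had 293 and 559, and 314 and 507 without them, beside 59.4% of all regions higher in both fits. Acetaminophen had 471 and 382, and 506 and 325 without them, beside 68.8% and 69.1% of all regions higher. The number with an unadjusted p under 0.05 for DEN at 30 mg/kg at hepatectomy was 116 of 904, of which 115 were higher, and 35 without those libraries, of which 17 were higher, beside 1397 and 963 of all 17174 regions. In all these fits 0 of 904 were called, beside 0% of the 17174 regions. Replicate 5 of every initiator group, at both times, carries the scaling total of a library of lower number, as described above. No library of the promoted controls does. In thioacetamide replicate 5 at hepatectomy, number 63, the median autosomal region stood at 66.4, against 52.5 to 55.3 in the other replicates of that group. The part of these totals in the uneven splits was not tested.

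Between the times, 291 of the 904 regions passed the filter over the 60 phenobarbital libraries and the 10 of the water control, and 0 were called for terminal minus hepatectomy over the 6 phenobarbital conditions, beside 0.0671% of the 16385 tested regions. At an unadjusted p under 0.05 there were 7 of the 291, beside 1201 of the 16385. This fit took the libraries of both times as independent, although they may come from the same animals. Pax2 had the smallest p for a higher value, at 13.2 ± 10.3 at terminal euthanasia and 6.95 ± 5.73 at hepatectomy (SD, n = 30 each), a log2 difference of 0.78 ± 0.31 (SE) with an adjusted p of 0.495 by limma, and 0.259 to 0.671 over the alternatives. The lowest, median and highest values of Pax2 over these libraries were no read, 5.67 and 20.07 at hepatectomy and no read, 11.1 and 38.3 at terminal euthanasia, with 10 or more in 9 and 16 of 30, so the times overlap. Havcr1, the kidney injury molecule, was at 6.11 ± 3.58 and 4.25 ± 3.64, and Dnajc30, a mitochondrial cochaperone, at 6.24 ± 7.37 and 2.61 ± 2.19. Vom2r13 was lower at 3.24 ± 3.36 against 5.25 ± 3.45, with an adjusted p of 0.444 by limma.

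Without the filter the time difference had 652 of the 904 regions higher at terminal euthanasia and 214 lower, beside 66.9% of all regions higher. The median log2 difference was 0.13 against 0.05 over all regions. Without the libraries of few empty regions the split was 472 and 390, beside 73.4% of all regions higher, with a median of 0.01 against 0.06. In these 2 fits 0 of 904 were called, beside 0.0349% and 0.157% of all regions. Those libraries were 3 of 30 phenobarbital libraries at hepatectomy and 5 of 30 at terminal euthanasia.

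The near-empty cytochrome P450 genes stayed low in both controls. Over the 15 of them, group means in the promoted control at terminal euthanasia, without its library of few empty regions, ran from 0.01 to 6.52 with a median of 1.26 (4 libraries), and in the water control from 0.01 to 2.95 with a median of 0.873 (5 libraries). Cyp2b2 had 1.98, no read, 3.04, no read and 9.15 in the promoted control and 2.04, no read, 6.01, no read and no read in the water control. Only the library of few empty regions, replicate 5, passed 6.01. Cyp2j4, an epoxygenase, was highest of this list, at 10.6 to 20.4 in the 8 libraries of few empty regions and up to 16.6 in the 57; with DEN at 3 mg/kg at terminal euthanasia it was at 1.87 ± 2.70 against 8.42 ± 7.26 in the promoted control, with an adjusted p of 0.579 by limma. Cyp3a2 and Cyp2d4 had no library of the 57 above 6.14 and 6.67.

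Every gene list with near-empty regions had a higher median in the 8 libraries with few empty regions. The median over the near-empty regions of a list, in the 8 libraries and in the 57, was 6.77 and 1.23 for odorant receptors, 5.49 and 1.04 for vomeronasal receptors, 7.21 and 1.02 for taste receptors, 6.46 and 0.985 for natural killer cell receptors and 5.91 and 1.11 for cytochrome P450 genes. It was 10.1 and 1.94 for zinc finger protein genes, 10.3 and 2.06 for chemokines, interleukins and receptors and 9.16 and 3.40 for histone cluster genes, where Hist1h2ail and Hist1h2bl overlap and carry the same values. Among single genes, Klri1 ran from 13.8 to 27.1 in the 8 and reached 10 in 4 of the 57, and Ly49i3 ran from 5.75 to 22.3 and reached 10 in none. Ccl11, the eosinophil chemokine eotaxin, was at 10.5 or more in all 8 libraries and at 12.5 or less in the 57. Zfp143 ran up to 30.9 and 17.4. Sult2a1, a sulfotransferase of steroids and bile acids, ran up to 14.1 and 13.3, Ugt2b7 up to 12.7 and 4.75, Serpinb3 up to 18.3 and 7.01, Prl2c1 up to 19.5 and 4.96 and Uqcrh, a subunit of respiratory complex III, up to 21.7 and 5.71.

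A last group had no read in any of the 70 libraries. There were 38 such regions, the same 38 among all autosomal regions. By counting error alone, 0 reads in all libraries together allows for up to 3 reads. That limit does not cover reads left out for another reason. Per the authors' deposited peak list, described below, 2 of these regions hold peaks with 20 and 19 reads. Of the 38, 21 carried symbols that the files mark as duplicates (_dup), beside 147 such regions among all autosomal regions. Among the first by symbol were Cav1 and Cav2, which encode the caveolins of membrane caveolae and lie side by side on chromosome 4 (42951602-42957227 and 42927627-42933252 in the files' coordinates), Crisp2, a sperm protein, Etaa1, a replication stress factor, and both copies of Ggct. A second region listed for Cav1, by another transcript (42952920-42958545), overlaps the first and had no read in 9 of the 70 libraries, with a mean of 5.10 over the 57. Irx1, a homeobox gene, was one of the 2 near-empty developmental transcription factors and also had no read, beside Pax2 with one of the highest levels. Mxi1, a MYC antagonist, is listed at 2 places on chromosome 1, both without a read. The window matched to the gene, the same for both places, holds 44 CGs. Reads that match more than 1 place could be missing from such regions, and the sources used here do not say how such reads were treated.

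The authors' deposited table of peaks that differ between DEN at 30 mg/kg and phenobarbital names few of these regions. A peak needs reads, and the near-empty regions were chosen for few of them, so a low share is partly built in. At hepatectomy, DEN at 30 mg/kg has 2 libraries with few empty regions and the promoted control none. Per that table, peaks higher with DEN at the earlier time lay in 13 of the 904 near-empty regions (1.44%), against 5.76% of the other autosomal regions. Peaks lower with DEN at that time lay in 1 (0.111% against 0.415%). At the later time, higher peaks lay in 3 (0.332% against 0.590%) and lower ones in 6 (0.664% against 0.992%). Regions that share a peak were each counted. Among the 6, Spetex-2A, Spetex-2B and Spetex-2D_dup2 hold the same peak, and Spetex-2F and Spetex-2H are of the same family. The largest in reads, by the authors' deposited table, was in Spetex-2H on chromosome 15 (4978101-4978285). It was lower with DEN at the later time, with 107 reads in the set where it was higher and 20 in the other. Others in the authors' deposited table were higher with DEN. They were in Sult1c2a with 24 and 2 reads at the earlier time, and in Vom1r35 with 34 and 3 and Arih1 with 24 and 2 at the later. Per the authors' deposited table, peaks also fell in 2 regions without a read in any library of the region tables, both at the earlier time. The authors' peak in Rhag_dup2 was lower with DEN, with 19 and 3 reads, and that in Plcg2_dup2 was higher, with 20 and 4. At those 2 places the peak list thus holds reads that the region tables do not.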

How the data were processed

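The authors deposited a signal for each of 17174 regions of 5625 bp in every library; per the labels, liver DNA was enriched with MethylMiner and read on a SOLiD 4 sequencer. Values were whole multiples of 50 M divided by a whole number, called the scaling total here, within 0.01 for 100% of them, and 0.01 marks no read. Neither the aligner, the genome build, the peak caller nor the meaning of the total is given in the sources used here. The deposited peak list holds read counts and a fold ratio, the enrichment factor.

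Groups came from the labels. limma 3.58.1 (R 4.3.3) was fitted with a variance trend to log2(signal + 1), with 1 mean per group, over regions with at least 5 libraries at 10 or more, with a threshold of 0.05 on p-values adjusted by Benjamini and Hochberg's method. edgeR 4.0.16 and DESeq2 1.42.0 were run on the recovered read counts. The scripts were tested on simulated data. That simulation changed only regions with a mean of more than 10 reads, so it did not test whether a gain in near-empty regions would be found. The regions, gene lists and tests were chosen with earlier results of these data known. Genes were named by rule: those beside the threshold, the 3 per direction with the smallest p in a comparison, the 10 highest at each time, up to 4 of each list and 10 without reads. Others were picked after their values were seen, as were the classes of CG content. The plan defined libraries with few empty regions in one place by regions outside the near-empty set, which takes 25 libraries, and in another by all regions, which takes 9; the latter was used. The labels tie each group to 5 rat livers. Since 1 read is worth about 1 unit of signal, differences of a few units rest on a few reads.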

Additional observations from a re-analysis of the deposited data

Results flagged for a closer look

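In 6 of the 13 groups of 5 that did not choose the regions, 1 library stood far from the other 4 in the number of the 904 near-empty regions at a signal of 10 or more, by the gap to its nearest neighbour over the range of the group. The limit used, 0.71, is one that about 1 in 20 groups of 5 normally distributed values would pass. Whether these counts are so distributed was not tested, so the number of groups is a description only. At hepatectomy this was 288 with acetaminophen. At terminal euthanasia they were 373 in the promoted control, 216 with DEN at 30 mg/kg, 278 with thioacetamide, 200 with methapyrilene and 253 with acetaminophen. Each of the 6 is a library with few empty regions. Those libraries were set apart with the near-empty regions counted in, so this is partly built in. In the water control at hepatectomy, the group that chose the regions, replicate 5 also stood apart, at 337. The remaining 2 of the 9, replicates 3 and 4 of DEN at 30 mg/kg at hepatectomy, had 197 and 227. Within library numbers 41 to 60, the 8 libraries with few empty regions ran from 197 to 373 with a median of 240, and the other 12 from 4 to 41 with a median of 8.5.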

How the results depend on the processing

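No near-empty region was called in any of the comparisons under any alternative that was run: another filter, a pseudocount of 10, quantile normalization, edgeR, DESeq2, the replicate block, a block for library numbers, without the libraries of few empty regions, and with each replicate left out in turn (0 to 0 called). A filter by a mean of 10 or more kept 0 near-empty regions at hepatectomy, 1 at terminal euthanasia and 0 between the times, so its result there was fixed in advance or nearly so. Without the libraries of few empty regions the usual filter kept 18, 22 and 55. Fits without a filter covered all 904. The replicate block gave 0 called, as did the fit without it. Same-numbered libraries of a condition at both times correlated at -0.38 to 0.68, with a median of 0.08, above 0.1 in 11 of 35 pairs. Same-numbered libraries of different conditions had medians of 0.008 at hepatectomy and 0.022 at terminal euthanasia, above 0.1 in 25 and 24 of 105 pairs. These values do not settle whether a number marks the same animal, and the main fit did not take the numbers as pairs. The number of near-empty regions was 496 with a threshold of 3, 1917 with 10, 1411 by the median in place of the mean, and 796 to 1518 with 1 water control replicate left out; the 1518 is without replicate 5.

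The mean number of near-empty regions with signal moved with the level that counts. At 5 or more it was, at hepatectomy, 79.6 in the promoted control, 86 with DEN 3 mg/kg, 259.6 with DEN 30 mg/kg, 114 with thioacetamide and 75.6 with methapyrilene, and at terminal euthanasia 95.4 in the water control, 75.4 with DEN 3 mg/kg, 170 with DEN 30 mg/kg, 189 with thioacetamide, 168.8 with methapyrilene and 210.4 with acetaminophen. At 20 or more it was 0.4, 0.8, 1 and 0.6 in the promoted control, DEN 3 mg/kg, thioacetamide and methapyrilene at hepatectomy, and 0.6 and 0.4 in the water control and DEN 3 mg/kg at terminal euthanasia. With any read it was 530.8, 487.4, 484.8, 609, 522.4, 497 and 574.8 at hepatectomy and 500, 565.6, 452.4, 504.8, 585.4, 578 and 610.8 at terminal euthanasia, in the order water control, promoted control, DEN 3, DEN 30, thioacetamide, methapyrilene and acetaminophen. With 10 recovered reads in place of a signal of 10, methapyrilene at hepatectomy had 16. Leaving out 1 library changed the group means to between 2 and 114.75. Without the 25 libraries of the other definition, an alternative added after seeing the data, group means were 2 to 21.

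Without the libraries of few empty regions, the number of autosomal regions under 5 was 1518 in the water control, 1534 with DEN 30 mg/kg and 1606 with acetaminophen at hepatectomy, and 1386 in the promoted control at terminal euthanasia. Over all alternatives, 3211 values of single named regions kept their direction and their side of the threshold and 3 reversed: Tmem86b for DEN 3 mg/kg at terminal euthanasia was at -0.41 by edgeR and -0.48 by DESeq2, and Olr1471 for DEN 30 mg/kg at hepatectomy ran from -0.74 to 0.29 with 1 library left out, the highest without replicate 2 of DEN 30 mg/kg. The cause was not tested. Leaving out a library of a group outside a comparison cannot change the direction of that comparison. Many of the 3211 values were therefore fixed in direction in advance, and their number is no measure of stability. The median near-empty region had a signal of 1.38 over the 57 libraries with the usual share of empty regions, where 1 read is worth about 1.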
